A study of Mus musculus with 8 samples.

Results

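The guanylate-binding protein genes were read in Kupffer cells, the macrophages that live in the liver's blood vessels, sorted from tumour-bearing livers of mice with and without Vsig4. The 9 genes were taken by symbol from the deposited table (Gbp2, Gbp2b and Gbp3 to Gbp9), out of 56691 genes listed, and all 9 were among the 15870 genes expressed highly enough to be tested. The KO libraries came from Vsig4-/- mice and the WT libraries from wild-type mice, with 4 libraries in each group. Both groups carried liver metastases of B16F10, a mouse melanoma line, and were sampled 7 days after the tumour cells were injected. The labels give neither the age, sex or background strain of the mice nor whether each library came from a separate animal, so the p-values reflect library-to-library spread alone, part of which may be technical. Cells were sorted as DAPI-, CD45+ and Tim-4+, and no tumour-free liver was analysed here.

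Guanylate-binding proteins are large GTPases that cells make in quantity after interferon, above all interferon gamma, and in macrophages they are a standard readout of that signal. They assemble on the membranes of vacuoles that hold parasites or bacteria and on bacteria themselves. The damage they cause releases microbial material that feeds the caspase-11 and AIM2 inflammasomes. Mice carry the genes in 1 cluster on chromosome 3 and another on chromosome 5.

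Vsig4, which encodes a complement receptor of tissue macrophages, had 9, 6, 2 and 4 counts in the KO libraries 1 to 4, against 40604, 46735, 22498 and 25498 counts in the WT libraries 1 to 4. Its log2 fold change (KO minus WT) was -12.89 ± 0.531 (SE; edgeR adjusted p = 5.35e-05), in the direction of the labels. Total counts ran from 16994406 to 19513844 in KO and from 15264043 to 19445494 in WT. Melanoma and Kupffer cell RNA differed widely between libraries within a genotype. The summed level of 10 melanoma markers was 2747, 3879, 13631 and 7011 CPM (counts normalised for library size) in KO 1 to 4, against 629, 547, 6153 and 5210 CPM in WT 1 to 4, although the sort should have removed tumour cells. The list is not free of macrophage genes, since Gpnmb, for example, is also a macrophage gene. The summed level of 14 Kupffer identity genes was 25389, 25408, 8200 and 19342 CPM in KO 1 to 4, against 36781, 36385, 20731 and 23510 CPM in WT 1 to 4. The Kupffer markers Timd4, the gene of the sort marker Tim-4, and Clec4f averaged 452 and 5376 CPM in KO, and 705 and 8737 CPM in WT.

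The cluster on chromosome 3 holds Gbp5, Gbp7, Gbp3, Gbp2b and Gbp2 in that order on the plus strand. It lies between 142199739 and 142343769 by the table's own coordinates, for which no build is stated. The GRCm38.p6 promoter positions printed below lie outside this span, so they cannot be combined with the deposited coordinates. Of the 9 genes, the cluster on chromosome 5 holds Gbp8, Gbp9, Gbp4 and Gbp6 on the minus strand, between 105162016 and 105441564. On the same strand, Gbp10 lies between Gbp4 and Gbp6, and Gbp11 lies beyond Gbp6. RefSeq promoter sequences (GRCm38.p6, from 250 bases before to 50 after a start site) were matched for 5 of the 9 genes, in 6 windows. They are shown because these genes moved together across the libraries, as given below, and because 2 motifs of interferon signalling can be looked for in them: GAAANNGAAA, the pattern of the interferon-stimulated response element, to which IRF factors bind, and TTCNNNGAA, the pattern of the gamma-activated sequence. Both strands were searched, and N stands for any base. The stretch around each GAAANNGAAA match follows, on the plus strand, with the match in capitals. All matches lie on the minus strand, and in Gbp3 the capitals cover 2 matches that overlap.

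Gbp5, chr3:142496754-142496793: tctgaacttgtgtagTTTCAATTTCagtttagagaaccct
Gbp7, chr3:142530268-142530307: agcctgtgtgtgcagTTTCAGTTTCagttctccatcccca
Gbp3, chr3:142559984-142560029: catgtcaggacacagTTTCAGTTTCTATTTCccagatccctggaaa
Gbp2b, chr3:142594695-142594734: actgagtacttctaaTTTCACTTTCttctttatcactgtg
Gbp2, chr3:142620589-142620628: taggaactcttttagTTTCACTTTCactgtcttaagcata

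The matches began 165 bases before the start site in Gbp5, 53 in Gbp7, 45 in Gbp3, 137 in Gbp2b and 59 in Gbp2. The GAAANNGAAA pattern was present in 5 of the 6 windows, against 3.44% of 32851 RefSeq promoter windows of the same length. The TTCNNNGAA pattern was present in 2 of the 6, those of Gbp5 and Gbp7, against 8.3% of all windows. A match is a description of letters and not a site shown to be bound.

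All 9 genes were expressed in every library, and each averaged less in KO than in WT. Levels below are in FPKM (the authors' counts scaled by exon length and library total), which allows genes of different length to be compared.

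Gbp2b, long known as mouse Gbp1, had 119.5, 61.05, 20.18 and 32.84 FPKM in KO 1 to 4, against 93.18, 229.6, 74.36 and 145.03 FPKM in WT 1 to 4. KO 1 lay above WT 1 and WT 3, while the other 3 KO libraries lay below every WT library. It was the most variable member, with an 11.4-fold range between the lowest and the highest library.

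Gbp2, which is recruited to parasite vacuoles and to cytosolic bacteria in mice, had 56.06, 36.99, 16.91 and 28.06 FPKM in KO 1 to 4, against 68.3, 93.12, 39.35 and 75.71 FPKM in WT 1 to 4. Gbp3 had 68.02, 51.43, 19.39 and 37.25 FPKM in KO 1 to 4, against 79.7, 110.02, 50.76 and 86.24 FPKM in WT 1 to 4. In both genes KO 1 was the library that overlapped the WT range, and in Gbp3 KO 2 also lay just above WT 3.

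Gbp5, which acts with Gbp2 in the lysis of cytosolic bacteria upstream of AIM2, had 14.85, 7.77, 3.03 and 5.57 FPKM in KO 1 to 4, against 14.97, 25.12, 9.8 and 25.33 FPKM in WT 1 to 4. Gbp7, which in mice has been tied to oxidative and autophagic killing of bacteria, had 26.67, 17.97, 7.1 and 11.56 FPKM in KO 1 to 4, against 28.98, 37.62, 20.14 and 38.66 FPKM in WT 1 to 4. For both, KO 1 lay close to WT 1 and the other KO libraries lay below all WT libraries.

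On chromosome 5, Gbp8 was the most abundant gene. It had 117.51, 83.2, 33.24 and 61.91 FPKM in KO 1 to 4, against 109.68, 150.75, 83.79 and 152.02 FPKM in WT 1 to 4. Gbp9 had 33.44, 24.16, 16.12 and 22.52 FPKM in KO 1 to 4, against 40.1, 38.1, 33.02 and 40.88 FPKM in WT 1 to 4. Gbp9 had the narrowest range of the 9 genes, 2.54-fold, and overlapped between the genotypes only through KO 1 and WT 3.

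Gbp4 had 19.57, 8.73, 4.84 and 8.08 FPKM in KO 1 to 4, against 19.12, 36.53, 17.1 and 50.22 FPKM in WT 1 to 4. Gbp6, which helps mouse macrophages restrict mycobacteria, had 4.98, 3.31, 1.47 and 2.31 FPKM in KO 1 to 4, against 4.9, 8.39, 4.52 and 7.64 FPKM in WT 1 to 4. In these 2 genes KO 1 was level with WT 1, and KO 2, KO 3 and KO 4 were below all WT libraries.

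**Figure D1:**
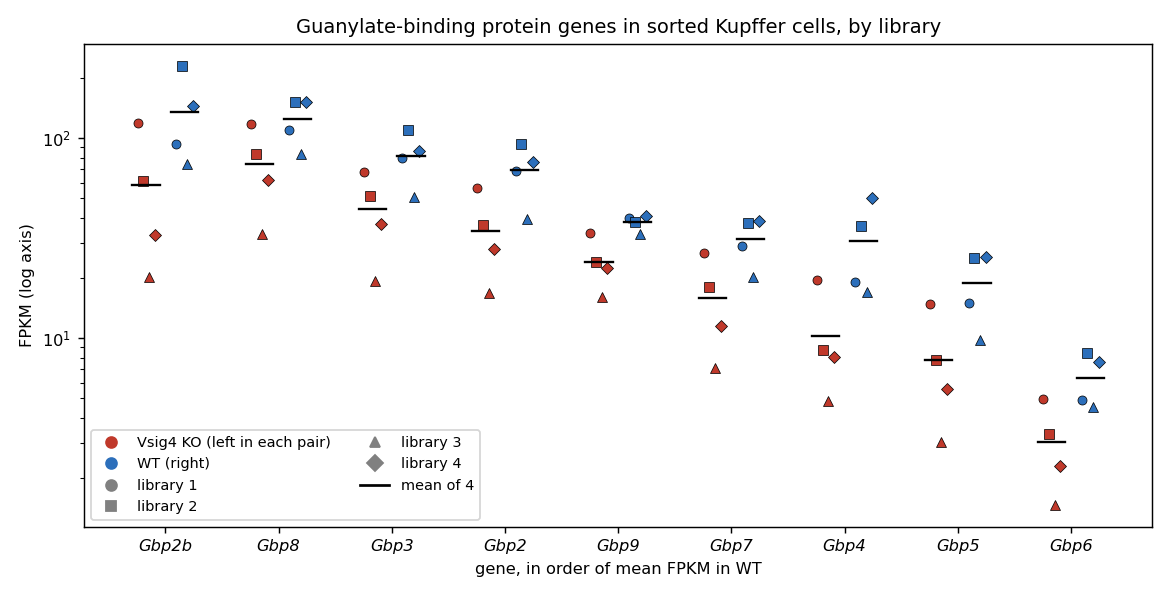
FPKM (log axis) of the 9 guanylate-binding protein genes in each library, KO in red on the left and WT in blue on the right of each pair, with symbols for libraries 1 to 4 and a line at the mean of 4. The genotypes overlap in every gene, because KO 1 (red circles) sits among the WT libraries, while KO 3 (red triangles) is the lowest library for all 9 genes.

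The same libraries were high or low for nearly every member. KO 3 was the lowest library for 9 of 9 genes in CPM. WT 2 was the highest for 7 of them, WT 1 for Gbp9 and WT 4 for Gbp4. KO 3 and KO 4 lay below every WT library in all 9 genes, KO 2 in 7 and KO 1 in 0. Over the 36 pairs of members, Pearson's r of log2 CPM across the 8 libraries ran from 0.913 to 0.993 with a median of 0.975, and after each genotype's mean was subtracted it ran from 0.821 to 0.992 with a median of 0.957. These are descriptions over libraries that also differ in melanoma and Kupffer RNA.

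The order of the genes by mean FPKM was almost the same in the 2 genotypes. In KO it was Gbp8 (74.0 ± 35.5 FPKM, mean ± SD, n = 4 here and below), Gbp2b (58.4 ± 44.2), Gbp3 (44.0 ± 20.7), Gbp2 (34.5 ± 16.6), Gbp9 (24.1 ± 7.15), Gbp7 (15.8 ± 8.50), Gbp4 (10.3 ± 6.41), Gbp5 (7.81 ± 5.08) and Gbp6 (3.02 ± 1.51). In WT Gbp2b (136 ± 69.5) stood before Gbp8 (124 ± 33.3), followed by Gbp3 (81.7 ± 24.4), Gbp2 (69.1 ± 22.4), Gbp9 (38.0 ± 3.54), Gbp7 (31.4 ± 8.64), Gbp4 (30.7 ± 15.6), Gbp5 (18.8 ± 7.71) and Gbp6 (6.36 ± 1.94). The change at the top of the order rested on WT 2, the only 1 of 4 WT libraries in which Gbp2b exceeded Gbp8. Neighbours in either order had overlapping ranges, except Gbp5 and Gbp6 in WT. Within a library most neighbours nevertheless kept their order: Gbp3 exceeded Gbp2, Gbp2 exceeded Gbp9, Gbp9 exceeded Gbp7, Gbp4 exceeded Gbp5 and Gbp5 exceeded Gbp6 in 4 of 4 libraries of each genotype.

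The lower level in KO did not pass the test over all genes. In edgeR's quasi-likelihood test 0 of the 9 genes were called at an adjusted p under 0.05, where 1 of 15870 genes, Vsig4, was called lower (0.0063%) and 0 were called higher (0%). At an unadjusted p under 0.05, 723 genes were lower (4.56%) and 671 higher (4.23%), and 7 of the 9 Gbp genes, all but Gbp2b and Gbp8, were among the lower. The log2 fold changes of the 9 genes ran from -1.64 ± 0.505 (SE) in Gbp4 to -0.74 ± 0.231 in Gbp9, each with an edgeR adjusted p of 0.492. Between these lay Gbp5 at -1.34 ± 0.513, Gbp2b at -1.29 ± 0.598, Gbp6 at -1.15 ± 0.397, Gbp2 at -1.09 ± 0.409, Gbp7 at -1.06 ± 0.417, Gbp3 at -0.98 ± 0.407 and Gbp8 at -0.82 ± 0.392. All 9 were below 0, as were 50.4% of all genes tested, and their median was -1.09, against -0.0028 over all genes. Ranked from the most lowered, Gbp4 stood at 59 and Gbp9, the last of the 9, at 808 of 15870. In 0 of the 9 genes did all KO libraries lie below all WT libraries in CPM, which 2.85% of all genes did, while 2.71% of all genes lay wholly above.

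A fit that blocks on the library number, so that KO 1 is set against WT 1 and so on, called all 9 genes lower in KO. The labels give no such pairing. In that fit 795 of 15870 genes were called lower (5.01%) and 1425 higher (8.98%). The log2 fold changes of the 9 genes with the block ran from -1.74 ± 0.390 (SE) in Gbp4 to -0.79 ± 0.129 in Gbp9, with edgeR adjusted p between 0.0254 and 0.0439. The number of calls varied with the pair left out. Without pair 2 the fit called 0 of the 9 (adjusted p 0.0775 to 0.128), where only 1 gene was called lower and 1 higher among all 15919 tested, and the median log2 fold change of the 9 was -1.18, against -1.20 with all pairs. Without pair 3 it called 0 of the 9 (adjusted p 0.0827 to 0.155), with 1 gene called lower and 0 higher among all 15952, and their median was -1.12. Without pair 4 it called 5 of the 9 and 754 genes lower in all, and without pair 1 it called 9 of the 9 and 164 genes lower in all, with medians of -1.05 and -1.53 for the 9 genes in these fits without pair 4 and without pair 1. Pair 1 showed little difference, with log2 ratios of KO 1 to WT 1 in CPM between -0.38 for Gbp2 and 0.26 for Gbp2b. In pairs 2, 3 and 4 every member was lower in KO, from -0.79 for Gbp9 in pair 2 to -2.70 for Gbp4 in pair 4. Over all 4 pairs 7 of 9 genes were lower in KO, a pattern that 19.6% of all genes showed, and Gbp2b and Gbp8 were lower in 3 of 4.

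**Figure D2:**
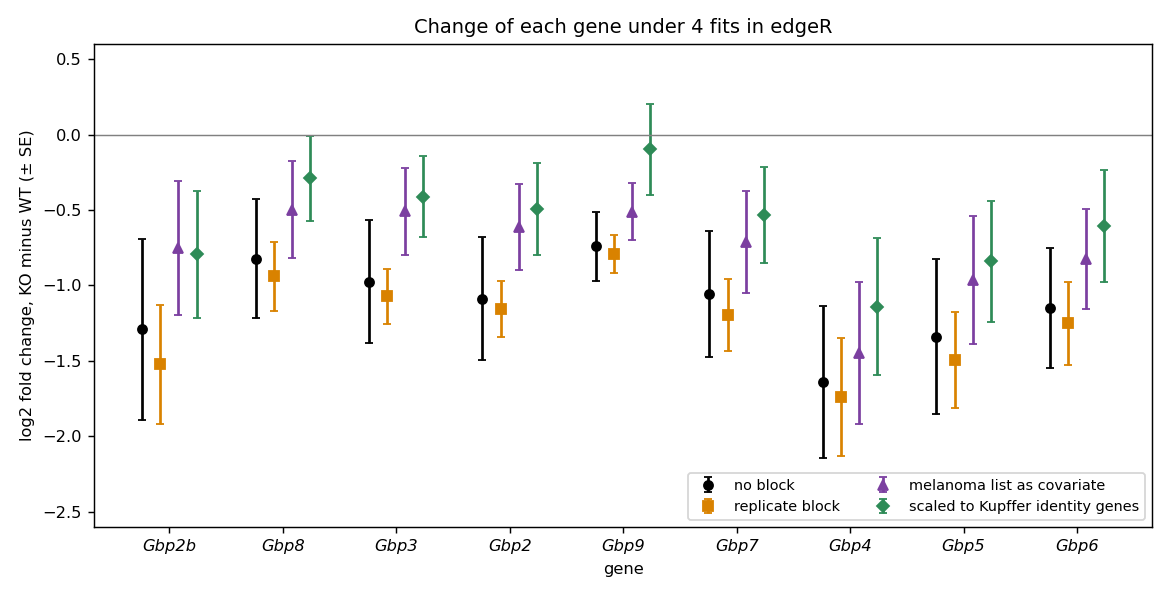
Log2 fold change (KO minus WT ± SE) of each gene in 4 edgeR fits, without a block, with the replicate block, with the melanoma list as covariate and with libraries scaled to the Kupffer identity genes. All 36 points lie below 0, and the last 2 fits lie nearer to 0 than the first for every gene. In the fit scaled to the Kupffer identity genes the median of all genes was 0.78, so 0 is not the level of a typical gene there.

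The summed level of the 9 genes was lowest in the library richest in melanoma RNA. It was 1727, 1078, 438 and 742 CPM in KO 1 to 4, against 1863, 2905, 1239 and 2380 CPM in WT 1 to 4. KO 3 had the lowest sum, the most melanoma RNA and the least Kupffer RNA, while WT 4 had the second-highest Gbp sum with 5210 CPM of melanoma RNA. With the block 9 of the 10 melanoma markers were called higher in KO (8.98% of all genes) and 8 of the 14 Kupffer genes lower (5.01% of all genes). Without it 0 were called in either list. In bulk samples, fewer cells of a type and less RNA per cell cannot be told apart. With the mean log2 level of the melanoma list as a linear term, the median log2 fold change of the 9 genes was -0.71 and 0 were called, at edgeR adjusted p between 0.493 and 0.824. Leaving out KO 3, WT 1 and WT 2 gave a median of -0.60, with 0 called.

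Set against Kupffer identity genes, the difference between the genotypes was smaller. The 9 genes summed to 68.0, 42.4, 53.4 and 38.3 counts per 1000 Kupffer identity counts in KO 1 to 4, against 50.6, 79.8, 59.7 and 101 in WT 1 to 4. KO averaged 50.5 ± 13.3 and WT 72.9 ± 22.5 (SD, n = 4 each), and the ranges overlapped. When libraries were scaled to the Kupffer list in the same edgeR test, the median log2 fold change of the 9 genes was -0.53 with 0 called, while the median of all genes moved to 0.78. Gbp9 was then at -0.10 and Gbp4 at -1.14. Per 1000 Kupffer identity counts, Gbp4 had 5.86, 2.56, 4.16 and 2.94 counts in KO 1 to 4, against 4.23, 8.22, 6.04 and 15.7 counts in WT 1 to 4, and Gbp9 had 6.91, 4.90, 9.56 and 5.65 counts in KO 1 to 4, against 6.13, 5.92, 8.05 and 8.83 counts in WT 1 to 4. On this scale Gbp4 averaged 3.88 in KO and 8.55 in WT, Gbp9 averaged 6.75 in KO and 7.23 in WT, and the genotypes overlapped in both genes.

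**Figure D3:**
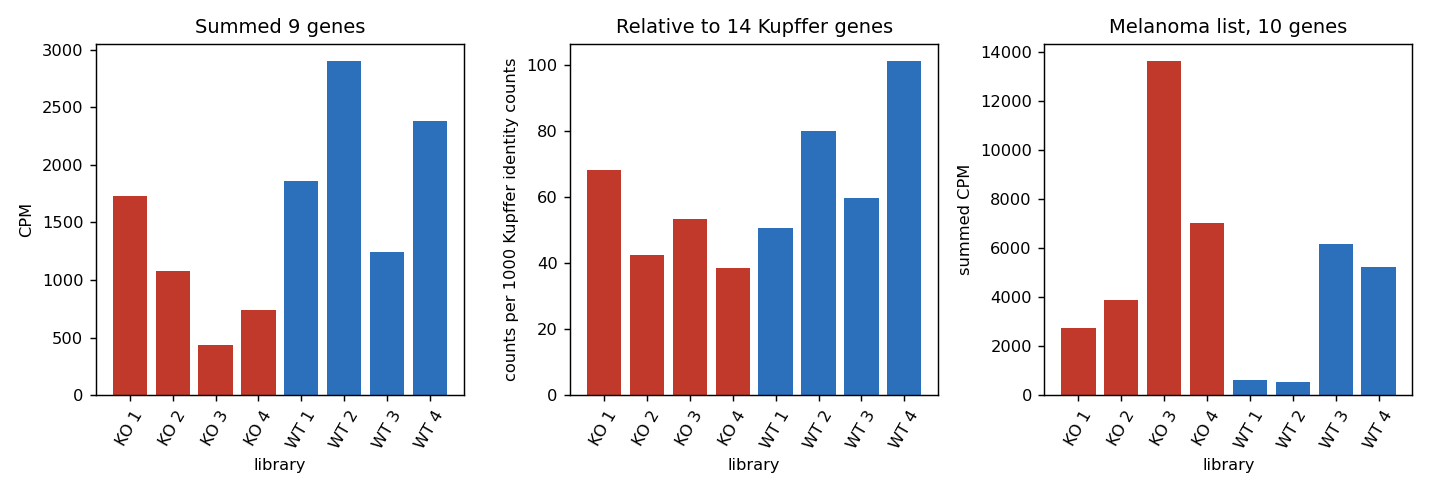
Left, summed CPM of the 9 genes in each library. Middle, their counts per 1000 counts of the 14 Kupffer identity genes. Right, summed CPM of the 10 melanoma markers, with KO in red and WT in blue; KO 3 has the lowest Gbp sum (438 CPM) and the highest melanoma sum (13631 CPM).

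Markers of other cell types were detected as well. The counts of calls with the block stand beside 5.01% of all genes called lower and 8.98% higher in that fit. The 8 T cell markers, all detected, summed to 47.4 to 187 CPM in KO and 69.5 to 215 CPM in WT, with 0 of 8 called in either fit. The 8 natural killer and cytotoxic markers summed to 17.3 to 60.6 CPM in KO and 31.6 to 93.2 CPM in WT, and 1 of them, Gzma, was called lower with the block. The 6 monocyte markers summed to 278 to 447 CPM in KO and 351 to 531 CPM in WT (1 called lower with the block), and the 6 dendritic cell markers to 158 to 286 CPM in KO and 186 to 305 CPM in WT (0 called). The 7 sinusoidal endothelial markers summed to 172 to 504 CPM in KO and 373 to 704 CPM in WT, and 3 of them were called lower with the block. The part of these cells in the Gbp levels was not tested. The sums of 8 hepatocyte markers (1046 to 1497 CPM in KO, 1553 to 2855 CPM in WT) and of 7 stellate cell markers (68.3 to 125 CPM in KO, 169 to 269 CPM in WT) did not overlap between the genotypes. As single genes, 1 of the 8 and 2 of the 7 lay wholly below WT in KO, as did 2.85% of all genes. Trf was the largest part of the hepatocyte sum, averaging 800 CPM in KO and 1285 CPM in WT. Ecm1 was the largest part of the stellate sum, averaging 63.4 CPM in KO and 105 CPM in WT. With the block 2 of the 8 and 2 of the 7 were called lower. The part of these cells was not tested either.

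The shares of most family members in the summed Gbp FPKM overlapped between the genotypes. Gbp8 made up 25.5, 28.2, 27.2 and 29.5% of the summed Gbp FPKM in KO 1 to 4, against 23.9, 20.7, 25.2 and 24.5% in WT 1 to 4, the only share that did not overlap between the genotypes. Gbp2b made up 19.7 ± 4.72% in KO and 24.4 ± 4.91% in WT (SD, n = 4 each), with overlapping ranges. Gbp4 made up 2.96 to 4.25% in KO and 4.17 to 8.08% in WT. The ratio of Gbp4 to Gbp8 was 0.167, 0.105, 0.146 and 0.131 in KO 1 to 4, against 0.174, 0.242, 0.204 and 0.330 in WT 1 to 4. It was 1 of 3 ratios, out of 36 between members, whose genotypes did not overlap. All 3 (Gbp4, Gbp6 and Gbp7, each to Gbp8) contain Gbp8, so they are not separate from its share. The cluster on chromosome 3 supplied 57.7 ± 3.61% of the sum in KO and 62.0 ± 4.23% in WT.

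**Figure D4:**
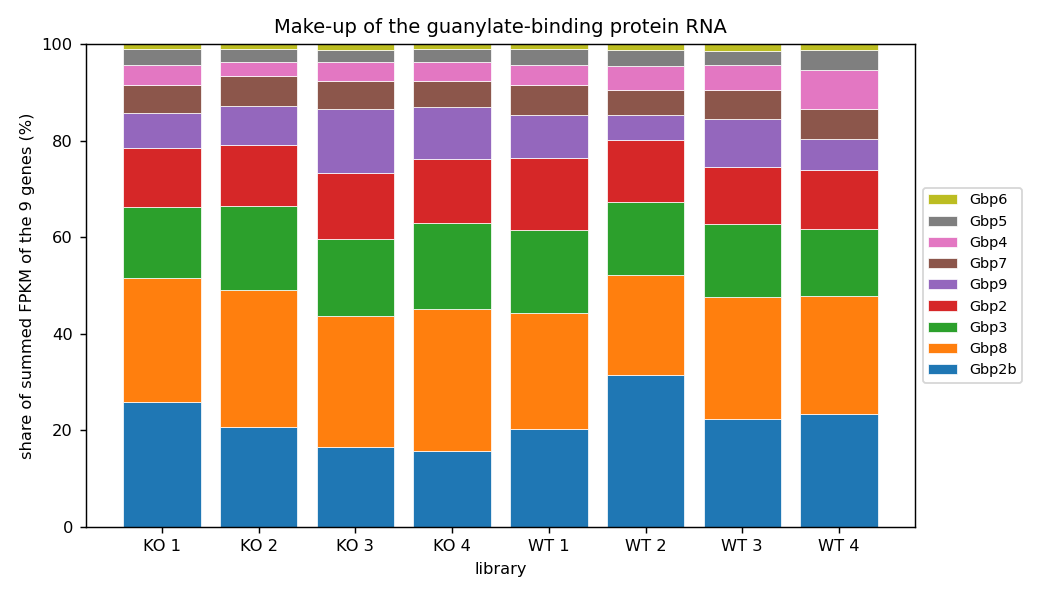
Share of each gene in the summed FPKM of the 9 genes (%), as stacked bars for each library, KO on the left and WT on the right. Gbp2b and Gbp8 are the largest parts of most bars, and the Gbp8 part is larger in every KO library than in any WT library.

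The counting limits how sharply some members can be separated. Gbp8, Gbp9 and Gbp4 overlap on the same strand in the deposited positions and share 60 to 61 bases of exon in the GENCODE M21 annotation, 0.814 to 1.77% of their exon bases. Of the 100-base windows of Gbp6 transcripts, 37.3% also occur in another member of the family, chiefly Gbp10 (36.3%), so Gbp6 is uncertain if reads were split between them. For the other 8 genes the share was at most 4.39%.

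Gbp10 and Gbp11, the other 2 Gbp genes listed, had few counts. Of the 100-base windows of Gbp10 transcripts, 60.9% also occur in another Gbp gene, chiefly Gbp6 (60.1%), so the Gbp10 counts are uncertain too. Gbp10 had 35, 16, 7 and 3 counts in KO 1 to 4, against 18, 74, 14 and 17 counts in WT 1 to 4. Its log2 fold change was -1.17 ± 0.780 (SE; edgeR adjusted p = 0.498, and 0.167 with the block). Gbp11 had 4, 5, 4 and 4 counts in KO 1 to 4, against 4, 25, 13 and 25 counts in WT 1 to 4, and was too low to be tested.

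Among the genes that transmit the interferon gamma signal, Irf1 and Stat2 were among those called lower in KO with the block. Interferon gamma binds a 2-chain receptor with attached kinases, and the signal induces IRF1, a transcription factor of many interferon-responsive genes. Of 12 genes of the pathway 3 were called lower with the block, against 5.01% of all genes, and 0 without it. The list's median log2 fold change was -0.39. Irf1 had 211, 135, 89.4 and 133 CPM in KO 1 to 4, against 278, 332, 204 and 328 CPM in WT 1 to 4. Its log2 fold change was -1.0 ± 0.267 (SE; edgeR adjusted p = 0.492, and 0.0254 with the block), and only KO 1 overlapped WT. Stat2, which works mainly in type I interferon signalling, was at -0.77 ± 0.374 (adjusted p = 0.492, and 0.0326 with the block). Ifng itself had 65, 43, 36 and 9 counts in KO 1 to 4, against 76, 133, 31 and 35 counts in WT 1 to 4, which overlap.

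The immunity-related GTPases are the second family of interferon-induced GTPases that act on vacuoles. They were called lower in 7 of 9 genes with the block, against 5.01% of all genes, and in 0 without it. Their median log2 fold change was -1.07, with values from -1.60 in Tgtp2 to 0.13 in Irgq, the only one above 0. Iigp1, an effector that loads onto vacuoles, had 171, 83.9, 30.6 and 47.1 CPM in KO 1 to 4, against 207, 284, 131 and 316 CPM in WT 1 to 4. Irgm2, a regulator of the effectors, was at -1.07 ± 0.40 (SE; edgeR adjusted p = 0.492, and 0.0254 with the block). Igtp, another regulator, was at -1.05 ± 0.419 (0.492, and 0.0286 with the block), and Ifi47 at -1.10 ± 0.491 (0.492, and 0.0298 with the block). In all 4 genes KO 1 reached into the WT range, and in Ifi47 KO 2 did as well.

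Among 10 inflammasome genes, 6 were called lower with the block, against 5.01% of all genes, and 0 without it. Their median log2 fold change was -0.58. Aim2, the sensor of cytosolic DNA, had 127, 115, 64.6 and 116 CPM in KO 1 to 4, against 166, 170, 141 and 149 CPM in WT 1 to 4, with no overlap. Its log2 fold change was -0.57 ± 0.201 (SE; edgeR adjusted p = 0.492, and 0.0332 with the block). Nlrp3, a sensor of cell damage, was at -0.60 ± 0.220 (0.492, and 0.0254 with the block). Nlrc4, which responds to bacterial flagellin and secretion systems, was at -0.78 ± 0.332 (0.492, and 0.0279 with the block), and Casp1, the protease that inflammasomes activate, at -0.68 ± 0.382 (0.492, and 0.0283 with the block).

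The ATG8 conjugation genes, whose products help to place Gbp proteins on vacuoles, showed 0 of 10 calls in either fit and a median of -0.16. Gabarap was at -0.17 ± 0.154 (SE; edgeR adjusted p = 0.567, and 0.202 with the block), and Map1lc3b at -0.16 ± 0.102 (0.495, and 0.232 with the block). The atlastins, which belong to the same large GTPase superfamily but shape the endoplasmic reticulum, showed 0 of 3 calls in either fit. Atl3 was at -0.19 ± 0.124 (0.498, and 0.182 with the block) and Atl2 at 0.05 ± 0.114 (0.834, and 0.793 with the block).

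Of 14 other interferon gamma targets 12 were expressed highly enough to be tested. With the block 7 of these were called lower, against 5.01% of all genes, and without it 0. Their median log2 fold change was -0.92. Cxcl9, a chemokine that attracts T cells, had 90.0, 37.2, 20.8 and 24.9 CPM in KO 1 to 4, against 86.8, 172, 70.2 and 92.5 CPM in WT 1 to 4. Cd274, which encodes the checkpoint ligand PD-L1, was at -1.03 ± 0.303 (SE; edgeR adjusted p = 0.492, and 0.0254 with the block). Tap1, which carries peptides for antigen presentation, was at -0.81 ± 0.288 (0.492, and 0.0298 with the block), and Psmb8, an immunoproteasome subunit, at -0.63 ± 0.288 (0.492, and 0.0280 with the block).

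Of genes known mainly as type I interferon targets, 14 of 15 were called lower with the block, against 5.01% of all genes, and 0 without it. Their median was -0.71. Ifit3, which limits the use of viral RNA, was at -1.21 ± 0.397 (SE; edgeR adjusted p = 0.492, and 0.0254 with the block), and its relative Ifit2 at -0.96 ± 0.301 (0.492, and 0.0254 with the block). Rtp4 was at -0.86 ± 0.344 and Rsad2, the antiviral enzyme viperin, at -0.63 ± 0.313, both with the same adjusted p as Ifit3 in each fit. As for the Gbp genes, the blocked fits without pair 2 and without pair 3, which called at most 1 gene in each direction among all genes, called 0 in every one of these lists. Their medians moved less: without pair 2 and without pair 3 they were -1.15 and -1.07 for the immunity-related GTPases (-1.19 with all pairs), and -0.78 and -0.65 for the type I targets (-0.80 with all pairs). With the melanoma list as covariate the medians were -0.66 for the immunity-related GTPases, -0.62 for the other interferon gamma targets and -0.26 for the type I targets, with 0 called in each. With libraries scaled to the Kupffer list, where the median of all genes was 0.78, the medians were -0.53 for the immunity-related GTPases, -0.23 for the other interferon gamma targets and -0.09 for the type I targets, and they turned positive for the interferon gamma pathway (0.24), the inflammasome genes (0.07) and the ATG8 genes (0.63).

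The genes whose log2 CPM ran most like the mean of the 9 Gbp genes over the 8 libraries were Gm6545 (r = 0.998), Igtp (0.997), Irgm2 (0.995), Gm12250 (0.994), Zbp1 (0.993), F830016B08Rik (0.993), Tap1 (0.991) and Sectm1a (0.990). After each genotype's mean was subtracted their r stayed between 0.983 and 0.998. Among all 15861 other genes 573 (3.61%) had an r above 0.9. Zbp1, which encodes a sensor of left-handed nucleic acid, had 75.4, 49.96, 23.7 and 34.4 CPM in KO 1 to 4, against 91.7, 134, 69.2 and 125 CPM in WT 1 to 4. Gm6545 had 22.2, 14.4, 6.25 and 10.6 CPM in KO 1 to 4, against 26.0, 35.8, 17.4 and 29.4 CPM in WT 1 to 4. In both, KO 3 was lowest and WT 2 highest, as in 7 of the 9 Gbp genes.

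**Figure D5:**
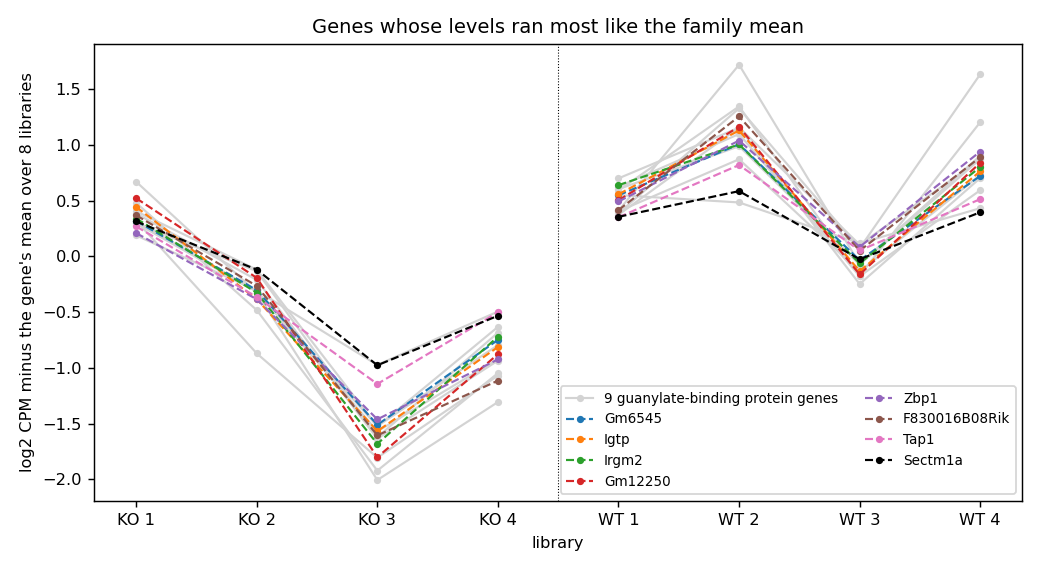
Log2 CPM minus each gene's mean over the 8 libraries, for the 9 Gbp genes (grey) and the 8 genes most like their mean (dashed), KO on the left and WT on the right; lines only join the points of a gene. All reach their lowest point in KO 3, and the 8 dashed genes are highest in WT 2.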

How the data were processed

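The deposited table gives raw counts and the authors' FPKM per gene and library, per the file headers; HTSeq 0.6.1 and mm10 are named per the submitters' processing notes. The aligner, the strand setting and the annotation version are not given in the sources used. FPKM equalled the count over exonic size and column total, within 0.005. The deposited other numbers are exonic sizes and positions; 1435 of the 52073 identifiers also found in GENCODE M21 (GRCm38) had identical positions. Column letter K was read as KO and C as WT, and 0 columns were left unmapped.

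Genes kept by filterByExpr were scaled by TMM and tested, KO against WT, with edgeR 4.0.16 (R 4.3.3; quasi-likelihood F test, 2-sided, Benjamini-Hochberg over 15870 genes, threshold 0.05). CPM uses TMM-scaled library sizes; correlations rest on log2 CPM (prior count 2). On simulated data of this comparison and 15870 genes, the unblocked test recovered 41% of 2-fold and 98% of 4-fold changes, with 6 false calls among 145. Whether these rates hold for the deposited libraries, which differ widely in melanoma and Kupffer RNA within a genotype, was not tested. Depth was 15264043 to 19513844 counts per library. Libraries of a genotype differed beyond sampling noise, with a chi-square per degree of freedom of at least 10.0.

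Both genotypes carry the numbers 1 to 4. Same-numbered libraries deviated together (r = 0.561, 0.544, 0.660 and 0.290 over genes, all above 0.1). The main fit has no block, and only the fits with the replicate block treat them as pairs. The labels do not state such pairs. KO 1 correlated better with WT 2 (0.669) and KO 4 with WT 3 (0.309) than with their own numbers, so the values set 1 and 2 apart from 3 and 4 rather than single pairs; melanoma RNA is lower in 1 and 2 than in 3 and 4 in both genotypes. Alternatives included DESeq2 1.42.0 and limma 3.58.1.

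The members, gene lists and rule for named genes were chosen with earlier results of these data known. From each list the rule took up to 4 genes called without the block, else with it by smallest p, else the 2 most expressed, and the 8 genes most like the Gbp mean. Ifng, Gzma, Timd4, Clec4f and Gpnmb were named besides, as were Tgtp2 and Irgq, the ends of their list, after their values were seen. Trf and Ecm1, the largest parts of their sums, were also named after their values were seen. Gbp11 is named as the remaining family member. A gene that the rule names is not reported here.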

Additional observations from a re-analysis of the deposited data

How the results depend on the processing

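All 198 values of the 9 Gbp genes in 22 alternatives were below 0, with adjusted p from 0.00456 to 0.953. Adjusted p under 0.05 came only from fits with the replicate block. Scaling by RLE, another filter, limma on FPKM with pseudocounts of 1 or 0.1, and DESeq2 called 0 of the 9 and gave medians of -1.10 to -1.04. Over all genes, 1 was lower and 0 higher without the block; no filter gave 1 higher, DESeq2 gave 16 lower and 20 higher, and the replicate block gave 795 lower and 1425 higher, with 9 Gbp genes lower. The block without pair 1 gave 164 lower and 43 higher, and without pair 4 it gave 5 Gbp genes lower. Leaving out 1 library or 1 pair gave 1 to 754 genes lower, 0 to 1475 higher, 0 to 9 Gbp genes lower and Gbp medians of -1.53 to -0.86. Leaving out KO 3, WT 1 and WT 2 together gave a Gbp median of -0.60. Leaving out any single library without the block called 0 Gbp genes, with 0.330 as the smallest adjusted p. Every member had at least 149 counts in each library. What limits these tests was not tested.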
